A study of Homo sapiens with 6 samples.

Results

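Contactins, contactin-associated proteins (CNTNAPs) and neurexins were examined through the open-chromatin peaks of 9 genes, CNTN1, CNTN3, CNTN4, CNTN5, CNTN6, CNTNAP2, CNTNAP4, CNTNAP5 and NRXN3. A peak was taken as a member when its centre lay between the first and last base of 1 of these genes in GENCODE release 44 (the gene body), or when it lay in no protein-coding gene and the nearest protein-coding gene start was that of a member. This gave 353 of the 152800 peaks of the atlas. Of these, 351 had enough counts to be tested, and the 2 that did not were both assigned to CNTNAP5. These genes are long and hold many peaks, so results are given per tested peak.

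Accessibility was measured by ATAC-seq, in which the Tn5 transposase cuts and tags open DNA, in A375, a human melanoma cell line. There were 3 libraries from stable A375 cells carrying an empty vector and 3 of A375 cells that stably overexpressed HMGB2 from a lentiviral vector (HMGB2OE), with no other treatment named for either group. HMGB2 is a high mobility group protein that bends DNA with little sequence preference, and the comparison asks where its overexpression changed accessibility. The study describes its 3 libraries per condition as technical replicates of an experiment that was not repeated, so each p-value below measures the spread between libraries and not between cultures.

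Contactins are immunoglobulin-family adhesion proteins held in the membrane by a glycolipid anchor. CNTNAPs are transmembrane proteins related to neurexins, and some of them form adhesion complexes with contactins on axons. Neurexins sit on the presynaptic side and bind neuroligins, LRRTM proteins and cerebellins across the synapse. All of these families are known from neurons, where they serve axon guidance, myelinated axon domains and synapse formation.

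The sequences below are the central 300 bases of 2 of the called lower peaks of smallest p-value and of the 3 called higher peaks of smallest p-value, read from hg38 on the plus strand. They are shown because the results turn on these peaks. Capitals mark TGACTCA or its reverse complement TGAGTCA, the word bound by AP-1, the family of FOS and JUN dimers. The 2 lower peaks, at chr12:40907176-40907475 (CNTN1) and chr11:100247543-100247842 (CNTN5), each held 1 such word.
CNTN1 lower: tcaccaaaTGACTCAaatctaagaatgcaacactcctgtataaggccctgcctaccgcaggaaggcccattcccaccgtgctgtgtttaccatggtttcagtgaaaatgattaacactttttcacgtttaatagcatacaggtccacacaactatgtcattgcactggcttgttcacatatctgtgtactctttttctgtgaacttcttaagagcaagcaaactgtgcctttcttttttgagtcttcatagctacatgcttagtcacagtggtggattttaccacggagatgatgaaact
CNTN5 lower: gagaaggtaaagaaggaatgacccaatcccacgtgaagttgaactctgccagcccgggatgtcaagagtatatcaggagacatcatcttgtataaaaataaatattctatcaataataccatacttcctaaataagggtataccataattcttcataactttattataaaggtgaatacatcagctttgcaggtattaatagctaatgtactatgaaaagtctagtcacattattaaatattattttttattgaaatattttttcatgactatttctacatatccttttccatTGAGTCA
The 3 higher peaks, at chr7:148110093-148110392 (CNTNAP2), chr3:74465858-74466157 (CNTN3) and chr3:1609438-1609737 (CNTN4), held none in these 300 bases. The whole CNTN3 peak held 1 word, which lies outside this window. The window was widened to 300 bases after the positions of the words were seen, so the contrast between lower and higher windows is not a result.
CNTNAP2 higher: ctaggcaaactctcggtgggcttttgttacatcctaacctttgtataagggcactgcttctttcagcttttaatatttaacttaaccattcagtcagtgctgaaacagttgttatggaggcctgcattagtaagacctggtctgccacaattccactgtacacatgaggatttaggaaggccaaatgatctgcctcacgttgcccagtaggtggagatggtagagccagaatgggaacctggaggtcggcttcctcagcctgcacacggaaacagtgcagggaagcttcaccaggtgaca
CNTN3 higher: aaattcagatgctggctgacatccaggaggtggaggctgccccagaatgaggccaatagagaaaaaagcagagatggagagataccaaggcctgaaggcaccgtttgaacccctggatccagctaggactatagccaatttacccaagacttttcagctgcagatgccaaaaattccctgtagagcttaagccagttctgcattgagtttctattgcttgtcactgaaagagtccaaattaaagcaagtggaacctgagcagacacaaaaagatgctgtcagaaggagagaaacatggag
CNTN4 higher: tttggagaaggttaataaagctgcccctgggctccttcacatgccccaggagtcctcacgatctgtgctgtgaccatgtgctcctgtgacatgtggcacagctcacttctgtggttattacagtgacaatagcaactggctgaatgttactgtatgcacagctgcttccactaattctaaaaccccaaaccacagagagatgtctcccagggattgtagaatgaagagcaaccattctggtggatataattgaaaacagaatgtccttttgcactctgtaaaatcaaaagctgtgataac

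The libraries held between 26910189 and 45645294 counts in peaks. At HMGB2 itself, the promoter peak, which belongs to the gene's own locus, had normalized counts of 1986 ± 223 in the empty vector group and 1973 ± 59.0 in the HMGB2OE group (mean ± SD of 3 libraries). The 2 peaks in HMGB2 coding exons, which can also collect reads from the vector, rose from 28.7 ± 6.28 to 63.0 ± 10.6 and from 32.0 ± 15.7 to 98.4 ± 5.31, with groups that did not overlap. Normalized counts here and below are raw counts scaled to a common effective library size, and error is the SD over 3 libraries unless named otherwise. Promoter peaks were present for 6 of 8 melanocyte and melanoma markers, with PMEL the highest at 3797 ± 349 in empty vector libraries, and absent for TYR and DCT. Promoter peaks of 5 of 5 neuronal markers also stood at 253 to 1659, those of 4 of 4 immune markers at 90.1 to 254, those of 3 of 3 epithelial markers at 221 to 760, and 1 of 2 endothelial markers had one at 212. The neuronal marker STMN2 was lower in HMGB2OE libraries (log2 fold change -0.36, edgeR adjusted p = 0.00728), and its part in the results was not tested.

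More member peaks were called lower than higher in HMGB2OE cells. The call rule asked for a fold change of at least 1.5 and for an adjusted p-value (Benjamini-Hochberg, over all 150117 tested peaks) under 0.05 in edgeR's quasi-likelihood test. By this rule 4 of 351 member peaks were called higher (1.14%, against 1.87% of all tested peaks) and 11 were called lower (3.13%, against 1.44% of all tested peaks). Outside promoters, meaning more than 3 kb from any protein-coding or long non-coding transcript start, 1.22% of 327 member peaks were called higher and 3.06% lower, where all tested peaks gave 2.18% and 1.68%. In the bodies of the 894 other protein-coding genes at least as long as the shortest member, 2.69% of 19269 tested peaks were called higher and 1.8% lower. Thus the members' share was below each of these backgrounds for gains and above each for losses. These are counts of 4 and 11 peaks, and no test of the lists was made.

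The median log2 fold change of the 351 member peaks was -0.02, beside -0.0049 for all tested peaks. Without the fold limit, 10 member peaks were higher (2.85%, against 3.44% of all tested peaks) and 19 lower (5.41%, against 3.03%). The 3 HMGB2OE libraries lay above all 3 empty vector libraries in 40 member peaks (11.4%, against 12.6% of all tested peaks) and below them in 53 (15.1%, against 12.5%). All 15 called peaks had groups that did not overlap. The same held for 98.2% of all tested peaks called higher and 98.2% of those called lower, so this follows largely from the call rule. Their mean normalized counts lay between 33.2 and 318, and none of the 19 member peaks with a mean over 500 was called, their log2 fold changes running from -0.30 to 0.41.

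**Figure D1:**
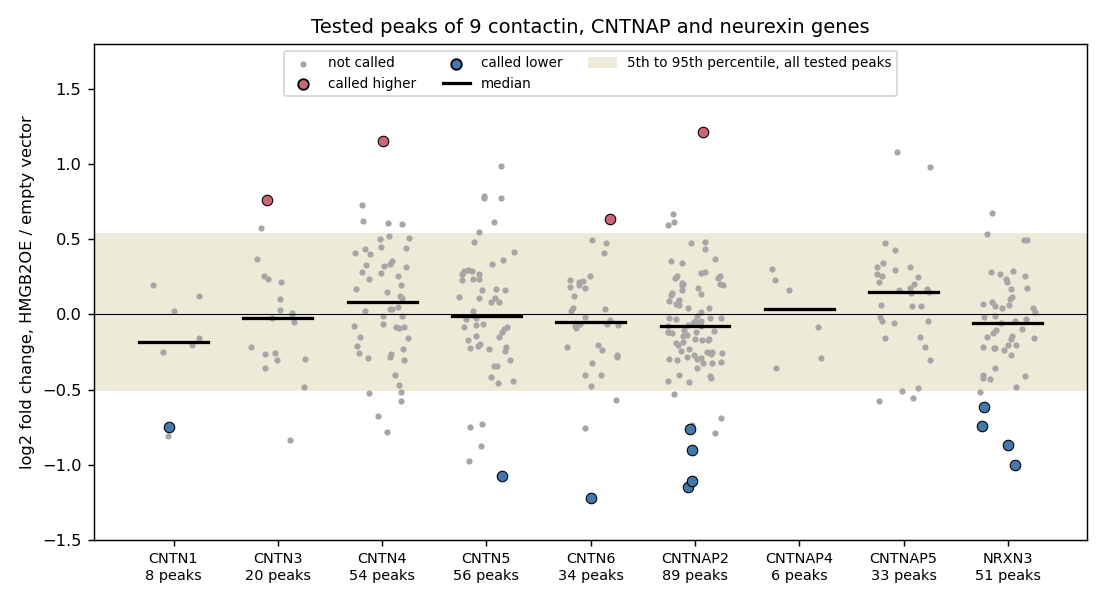
Each point is 1 tested peak, placed by its gene (x axis) and its log2 fold change in HMGB2OE over empty vector libraries (y axis), with horizontal spread within a gene only to separate points. Black bars are medians, the band spans the 5th to 95th percentile of all tested peaks, red points are the 4 peaks called higher and blue points the 11 called lower.

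Base composition moved with these calls. Member peaks were poorer in GC than the atlas, with a median of 41.6% beside 46.2%, and they were weaker, with a median normalized count of 67.3 beside 105. Among all tested peaks outside promoters, those with under 40% GC were called lower more often (3.17%) than higher (0.989%), and those with at least 50% GC showed the reverse (0.636% lower, 2.80% higher). Within the class under 40% GC, 6 of 127 member peaks were called lower (4.72%) and 0 higher. From 40 to under 50% GC, 3 of 158 were called in each direction (1.90%), where all peaks gave 2.49% higher and 1.44% lower. At 50% GC and over, 1 of 42 was called in each direction (2.38%). With GC-content offsets in the fit, 5 member peaks were called higher and 12 lower. The share of all tested peaks called in that fit is not given here, so these counts cannot be set against a background.

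**Figure D2:**
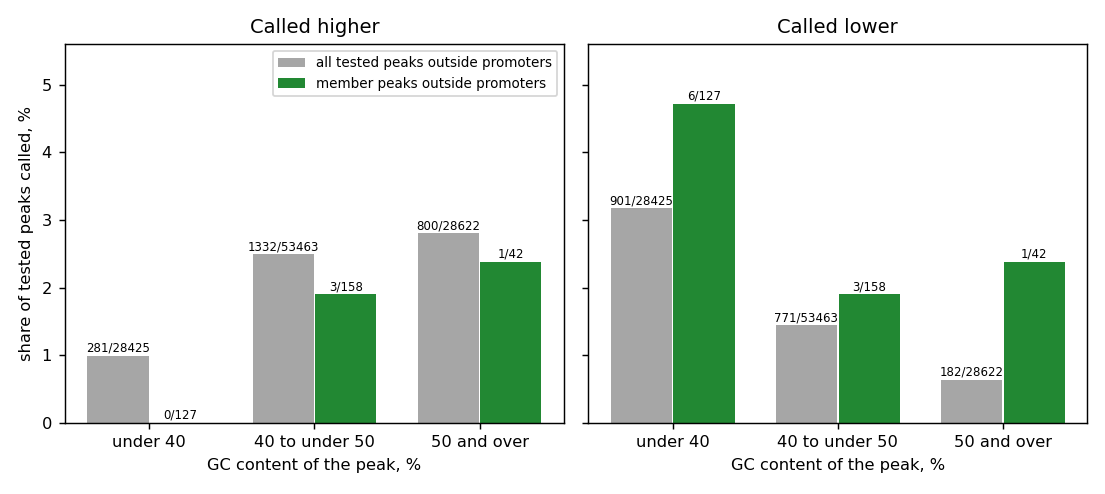
Bars give the percent of tested peaks outside promoters that were called higher (left) or lower (right) in 3 classes of GC content, for all such peaks (grey) and for member peaks (green), and the numbers above them give called over tested peaks. Losses are most frequent in the class under 40% GC in both sets, and 0 of 127 member peaks of that class were called higher.

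Among the contactins, 3 of 172 tested peaks were called higher and 3 lower (1.74% each, against 1.87% and 1.44% of all tested peaks). CNTN1, the contactin that joins CNTNAP1 at the junctions beside nodes of Ranvier, held the 1 member promoter peak that was called. This peak at chr12:40907075-40907576 lies in an intron, 1029 bases from the start of the transcript ENST00000347616.5 and 215 kb inside the gene. Its normalized counts were 353, 419.9 and 422 in empty vector replicates 1 to 3 and 252, 242 and 216 in HMGB2OE replicates 1 to 3. The empty vector libraries were all above the HMGB2OE libraries, and the peak fell by 0.75 on the log2 scale (standard error 0.114, edgeR adjusted p = 0.000134). The peak at the first start of CNTN1, at chr12:40692135-40692636, stood at 239 ± 14.1 in empty vector and 242 ± 29.1 in HMGB2OE libraries (log2 fold change 0.02, adjusted p = 0.951).

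CNTN6, an axonal contactin that has been described as a Notch ligand, held the called peak of smallest p-value among the members. It lies between genes, 210 kb upstream of the CNTN6 start. Empty vector replicates 1 to 3 had 232, 226 and 184 normalized counts and HMGB2OE replicates 1 to 3 had 80.8, 116 and 76.6. Every empty vector library exceeded every HMGB2OE library, and the level fell by 1.22 on the log2 scale (standard error 0.159, edgeR adjusted p = 2.51e-05), which is 2.33-fold lower. A second CNTN6 peak, in an intron at chr3:1235535-1236036, moved the other way. The 3 empty vector libraries gave 79.2, 62.8 and 80.7 normalized counts, and the 3 HMGB2OE libraries gave 84.2, 138 and 122, in replicate order. The groups were close, with HMGB2OE replicate 1 only just above the highest empty vector library. Its log2 fold change was 0.64 (standard error 0.193, edgeR adjusted p = 0.0433), and the call was lost with DESeq2 (adjusted p = 0.0956), with GC-content offsets (adjusted p = 0.0639), with a loess scaling (adjusted p = 0.0507) and in 5 of 6 fits that left out 1 library (adjusted p up to 0.245).

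CNTN5, a contactin known from the auditory pathway and other circuits, had 1 called peak among 56, in an intron 1227 kb from the gene start at chr11:100247442-100247943. Its normalized counts were 82.0, 85.2 and 91.3 in empty vector replicates 1 to 3 and 33.2, 46.7 and 42.8 in HMGB2OE replicates 1 to 3. The groups were well apart, and the peak fell by 1.08 on the log2 scale (standard error 0.218, edgeR adjusted p = 0.0027). With 33.1% GC it was among the most AT-rich of the called member peaks.

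CNTN4 and CNTN3 each had 1 called peak, and both rose. CNTN4 binds the amyloid precursor protein APP and takes part in axon targeting. Its peak lies between genes, 489 kb upstream of the gene start, at chr3:1609337-1609838. It was assigned to CNTN4 by the nearest gene start alone. The end of the CNTN6 body, at chr3:1404217, lies nearer to it than the CNTN4 start. Empty vector replicates 1 to 3 had 18.1, 13.8 and 30.4 normalized counts and HMGB2OE replicates 1 to 3 had 50.2, 38.4 and 48.4. It was the weakest of the called member peaks. The groups did not overlap and the log2 fold change was 1.15 (standard error 0.332, edgeR adjusted p = 0.0328), but the call was kept in only 1 of the 6 fits that left out a library, the one without empty vector replicate 3 (adjusted p up to 0.17 in the others). The CNTN3 peak lies in an intron 149 kb from the start, at chr3:74465757-74466258. The 3 empty vector libraries gave 48.6, 52.5 and 48.0 normalized counts, and the 3 HMGB2OE libraries gave 89.3, 83.4 and 81.1, in replicate order. Both groups were tight, with a log2 fold change of 0.76 (standard error 0.204, edgeR adjusted p = 0.021), and the adjusted p reached up to 0.0945 without HMGB2OE replicate 1 and was also over 0.05 without HMGB2OE replicate 2 or empty vector replicates 2 or 3.

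**Figure D3:**
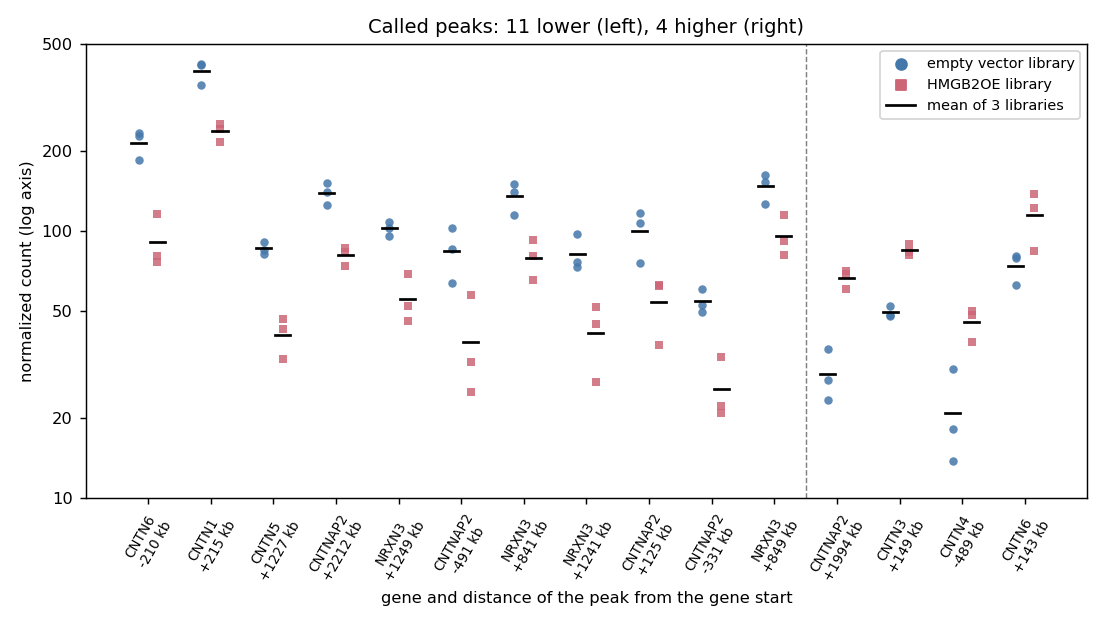
Normalized counts (y axis, log scale) of the 15 called member peaks in each library, with blue circles for empty vector, red squares for HMGB2OE and black bars for the mean of 3 libraries; the x axis names the gene and the distance from its start. The 11 peaks left of the dashed line were lower and the 4 right of it higher in HMGB2OE libraries. In no peak did the groups overlap, which is usual for called peaks (98.2% of all those called in each direction).

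CNTNAPs had 1 of 128 tested peaks called higher (0.781%, against 1.87% of all tested peaks) and 4 lower (3.12%, against 1.44%), all 5 assigned to CNTNAP2. CNTNAP2 gathers potassium channels beside the paranodes of myelinated axons and is among the longest human genes. Its higher peak is intronic, 1994 kb from the start, at chr7:148109992-148110493. Its normalized counts were 27.8, 23.2 and 36.3 in empty vector replicates 1 to 3 and 70.6, 69.2 and 60.8 in HMGB2OE replicates 1 to 3. The rise was 2.32-fold, with a log2 fold change of 1.22 (standard error 0.258, edgeR adjusted p = 0.00392), and none of the 6 single-library omissions ended the call.

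A lower CNTNAP2 peak lies further into the gene, in an intron 2212 kb from the start at chr7:148327337-148327838. Empty vector replicates 1 to 3 had 151, 125 and 140.4 normalized counts and HMGB2OE replicates 1 to 3 had 86.7, 74.2 and 83.3. The 3 HMGB2OE libraries were within a narrow range below the empty vector libraries, and the peak fell by 0.76 on the log2 scale (standard error 0.163, edgeR adjusted p = 0.00411). A further intronic peak, 125 kb from the start at chr7:146241128-146241629, had 100.03 ± 21.4 in empty vector and 54.2 ± 14.5 in HMGB2OE libraries (log2 fold change -0.90, edgeR adjusted p = 0.011). Its call was lost without empty vector replicate 2 (adjusted p = 0.0898) or HMGB2OE replicate 2 (adjusted p = 0.0839).

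The other 2 lower CNTNAP2 peaks lie between genes upstream of its start. The first, 491 kb upstream at chr7:145624607-145625108, was uneven within both groups. The 3 empty vector libraries gave 103, 63.7 and 85.4 normalized counts, and the 3 HMGB2OE libraries gave 32.3, 25.0 and 57.4, in replicate order. It fell by 1.15 on the log2 scale (standard error 0.265, edgeR adjusted p = 0.00761), and without HMGB2OE replicate 2 the adjusted p was 0.0587. The second, 331 kb upstream at chr7:145784602-145785103, had 54.5 ± 5.67 in empty vector and 25.6 ± 7.13 in HMGB2OE libraries (log2 fold change -1.11, edgeR adjusted p = 0.0187). Its adjusted p was 0.0719 without empty vector replicate 3, 0.0871 without HMGB2OE replicate 1 and 0.0873 without HMGB2OE replicate 2.

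CNTNAP4, known from synapses of inhibitory interneurons, and CNTNAP5 had no called peak among 6 and 33 tested. The CNTNAP5 peaks ran from a log2 fold change of -0.58 to 1.08, and the largest of these rises rested on a mean normalized count of 18.6 (adjusted p = 0.159). At this depth a change of that size was not separable from the spread between libraries. One CNTNAP5 peak was lower at adjusted p = 0.00309 but under the fold limit (log2 fold change -0.49, mean 439).

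In NRXN3, 4 of 51 tested peaks were called lower (7.84%, against 1.44% of all tested peaks) and none higher. All 4 are intronic and fall into pairs, at 841 and 849 kb and at 1241 and 1249 kb from the gene start. The first pair begins at chr14:79011588-79012089. Its normalized counts were 150.1, 139 and 115 in empty vector replicates 1 to 3 and 80.8, 92.6 and 65.3 in HMGB2OE replicates 1 to 3. It fell by 0.75 on the log2 scale (standard error 0.172, edgeR adjusted p = 0.00772). Its neighbour at chr14:79018834-79019335 had 147 ± 18.8 in empty vector and 95.9 ± 17.2 in HMGB2OE libraries (log2 fold change -0.61, edgeR adjusted p = 0.0205). That call was lost in 4 of the 6 fits that left out a library, with adjusted p of 0.0573 and 0.121 without empty vector replicates 1 and 2, and 0.078 and 0.0892 without HMGB2OE replicates 2 and 3.

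The second NRXN3 pair begins at chr14:79411398-79411899. Empty vector replicates 1 to 3 had 76.4, 73.1 and 97.1 normalized counts and HMGB2OE replicates 1 to 3 had 27.2, 45.0 and 51.8. The empty vector libraries were all higher (log2 fold change -1.003, standard error 0.24, edgeR adjusted p = 0.01), with adjusted p of 0.0603 without empty vector replicate 3 and 0.0864 without HMGB2OE replicate 1. The other peak of the pair, at chr14:79419429-79419930, kept its call in all 6 such fits. The 3 empty vector libraries gave 95.9, 108 and 103 normalized counts, and the 3 HMGB2OE libraries gave 68.9, 52.5 and 46.2, in replicate order. It fell by 0.87 on the log2 scale (standard error 0.196, edgeR adjusted p = 0.00659). Peaks close to these were not called. A peak 1573 bases from the one at 849 kb had a log2 fold change of -0.01, and the peak 1200 bases from the one at 1241 kb had 0.28.

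**Figure D4:**
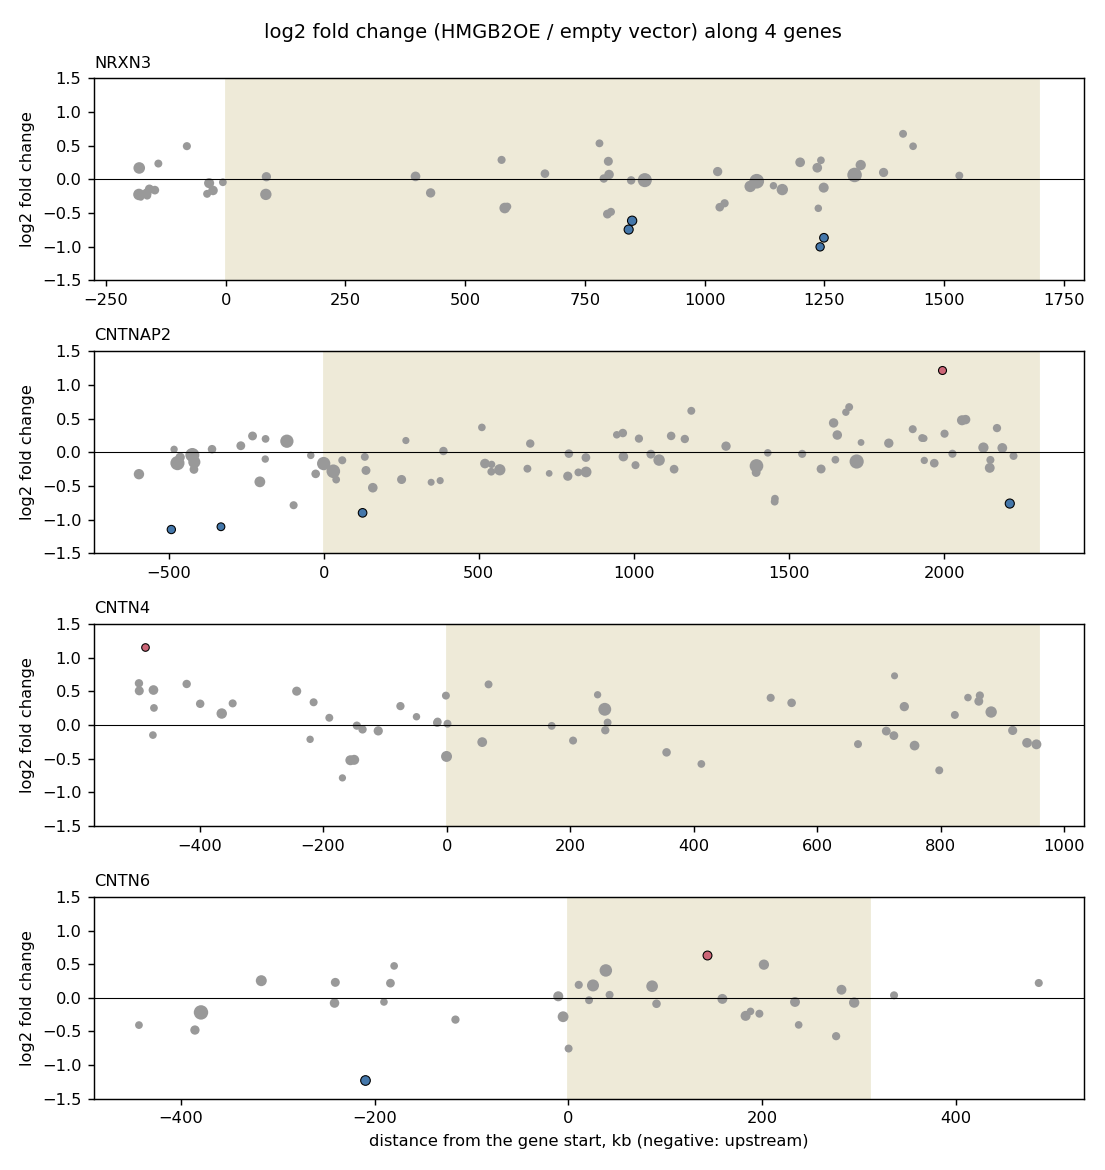
Log2 fold change of each tested peak (y axis) by its distance from the gene start in kb (x axis, negative upstream) for NRXN3, CNTNAP2, CNTN4 and CNTN6, with the gene body shaded, point area rising with the mean normalized count, blue for called lower, red for called higher and grey for not called. Called peaks stand as single points or close pairs among peaks that were not called.

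Each member had at least 1 promoter peak in A375 cells, meaning a peak within 3 kb of a start of its own transcripts. At CNTNAP4 the strongest of these lies between genes, 2.6 kb upstream of the start. That peak is also within 3 kb of a start of another gene. The promoter peak of highest mean count at each member had a mean of 1222 at NRXN3, 782 at CNTNAP2, 748 at CNTN5, 415 at CNTN3, 318 at CNTN1, 300.1 at CNTN4, 145 at CNTNAP5, 122 at CNTNAP4 and 48.0 at CNTN6. The strongest, at chr14:79279034-79279535, lies 55 bases from the start of the NRXN3 transcript ENST00000557594.5, an internal start 1109 kb into the gene. Its normalized counts were 1117, 1284 and 1298 in empty vector replicates 1 to 3 and 1241, 1197 and 1196 in HMGB2OE replicates 1 to 3. The groups overlapped (log2 fold change -0.03, adjusted p = 0.889), and there was no peak within 3 kb of the outermost start of NRXN3.

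At CNTN4 the promoter peak 69 bases from the gene start, at chr3:2098494-2098995, was lower by less than the fold limit. Empty vector replicates 1 to 3 had 354, 332 and 357 normalized counts and HMGB2OE replicates 1 to 3 had 199.8, 263 and 295. The groups did not overlap (log2 fold change -0.47, standard error 0.124, edgeR adjusted p = 0.0206), but the adjusted p was 0.192 without HMGB2OE replicate 1 (log2 fold change -0.32) and 0.0547 without empty vector replicate 3. At CNTN6 the promoter peak was weak, at 60.1 ± 13.2 and 36.0 ± 5.39, with a log2 fold change of -0.75 that did not pass (edgeR adjusted p = 0.0766). The CNTN3 promoter was the steadiest, with 414 ± 7.32 in empty vector and 416 ± 6.25 in HMGB2OE libraries. Over all 24 member peaks in promoters, 0 were called higher and 1 lower (4.17%), where all tested promoter peaks gave 0.977% and 0.788%. The HMGB2OE libraries lay below all empty vector libraries in 9 of the 24 (37.5%, against 15.1% of all tested promoter peaks) and above them in 0 (against 8.75%).

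The strongest peak outside promoters of each member had a mean normalized count from 411 at CNTNAP4 to 1159.6 at NRXN3, and none passed the adjusted p threshold. At NRXN3 this peak, at chr14:79483378-79483879 in an intron, stood at 1134 ± 82.3 and 1186 ± 93.0 (log2 fold change 0.07). At CNTN6 an intergenic peak 379 kb upstream, at chr3:713227-713728, stood at 1213 ± 73.2 and 1044 ± 103 (log2 fold change -0.22, adjusted p = 0.127). A second strong CNTN6 peak, in an intron 38.8 kb from the start, rose from 494 ± 64.7 to 656 ± 10.2 at adjusted p = 0.0104, with a log2 fold change of 0.41 that is under the fold limit. This peak was chosen for mention after its values were seen.

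The lower peaks often held an AP-1 word. TGACTCA or TGAGTCA was found in 9 of the 11 peaks called lower, in 2 of the 4 called higher and in 104 of the 336 not called (31.0%). Of all tested peaks outside promoters 31.7% held it. Among all those outside promoters, 35.0% of the peaks called lower and 36.9% of the peaks called higher did. The study itself reported an AP-1 motif as top-ranked in the promoter part of regions that opened with HMGB2 overexpression. The count of 9 in 11 is a description of peaks chosen by their change, with no test. ATCAAAG, a word of TCF and LEF factors, was in 4 of the 11 lower peaks (7.62% of all tested peaks outside promoters), and ACAAAGG, a word of SOX factors, in 1 (13.1%). All words were counted on both strands. The windows below, read from hg38 on the plus strand with 15 bases each side, show the words of 8 other called peaks, with the word in capitals.
CNTNAP2 148327337 lower: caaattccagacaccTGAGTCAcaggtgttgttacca
CNTNAP2 145624607 lower: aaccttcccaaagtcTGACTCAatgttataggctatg
CNTNAP2 146241128 lower: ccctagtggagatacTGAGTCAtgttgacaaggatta
NRXN3 79011588 lower: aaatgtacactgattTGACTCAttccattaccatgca
NRXN3 79411398 lower: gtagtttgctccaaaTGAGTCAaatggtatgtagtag
NRXN3 79018834 lower: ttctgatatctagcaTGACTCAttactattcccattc
CNTN3 74465757 higher: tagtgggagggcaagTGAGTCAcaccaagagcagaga
CNTN6 1235535 higher: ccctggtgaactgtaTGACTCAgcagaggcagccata
Each name gives the start of the peak. The words lay within 100 bases of the peak's centre in 6 of the 11 peaks that held one, all 6 of them lower. In the 2 higher peaks they lay 180 and 185 bases away. Word positions over all tested or all called peaks are not given here, so this is no result about lower against higher peaks. A match of these letters does not show that a factor binds there.

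Counts were added over the peaks of each protein-coding gene and tested over 18341 genes, of which 9.26% passed an adjusted p of 0.05. Among the 9 members 1 passed, which is close to that share. CNTN1 fell from 2032 ± 118 to 1763 ± 62.9 (log2 fold change -0.21, standard error 0.0511, edgeR adjusted p = 0.0168) with groups that did not overlap. That call ended when promoter peaks were left out (adjusted p = 0.141), and without empty vector replicate 2 (adjusted p = 0.13), HMGB2OE replicate 1 (adjusted p = 0.054) or HMGB2OE replicate 3 (adjusted p = 0.0699). The sums of CNTNAP2 (log2 fold change -0.079, adjusted p = 0.197) and CNTNAP4 (0.19, adjusted p = 0.0867) did not overlap between groups but did not pass, and the CNTNAP4 value turned to -0.32 when only its 1 peak inside the gene body was used. With only peaks in gene bodies summed, CNTN6 also passed, in the direction of a rise (log2 fold change 0.16, adjusted p = 0.0286). In the other 6 genes the groups overlapped, with log2 fold changes between -0.02 and 0.07. The share of all 18341 gene sums whose groups did not overlap is not given here, so the lack of overlap in CNTN1, CNTNAP2 and CNTNAP4 is a description only.

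**Figure D5:**
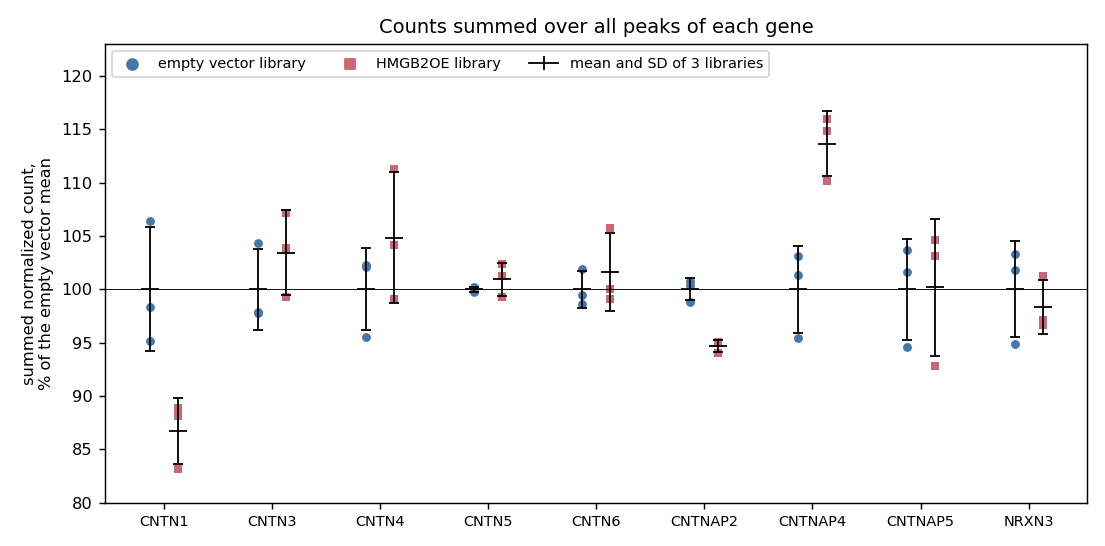
Normalized counts summed over all peaks of each gene, as a percent of the empty vector mean of that gene (y axis, which does not start at 0), for each library, with black marks for the mean and SD of 3 libraries. CNTN1 and CNTNAP2 lie lower and CNTNAP4 higher in all 3 HMGB2OE libraries than in any empty vector library, and of these only CNTN1 passed the adjusted p threshold. How often this occurs over all genes is not given here.

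Peaks had a fixed width of 502 bases in 152785 of 152800 cases, so width does not enter the levels per peak. Each level is a mean over peaks of unlike strength, which at NRXN3 ran from 9.32 to 1222. The SD given is between libraries, not between peaks. In empty vector libraries the mean normalized count per peak was 254 ± 14.8 at CNTN1, 185 ± 8.31 at NRXN3, 174 ± 3.03 at CNTN6, 160.2 ± 1.64 at CNTNAP2, 143 ± 5.37 at CNTN3, 121 ± 4.88 at CNTNAP4, 113 ± 5.37 at CNTNAP5, 107 ± 0.231 at CNTN5 and 96.1 ± 3.69 at CNTN4. The library ranges of NRXN3 and CNTN6 overlapped, as did those of CNTNAP4 and CNTNAP5 and those of CNTNAP5 and CNTN5. The other neighbours in this order did not overlap. The order is that of means, on which a few strong peaks weigh heavily, and medians gave another. By the median peak over both groups, CNTN4 (62.0), last by mean, stood above CNTN3 (61.7), CNTN5 (60.8) and CNTNAP5 (57.4).

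A list of 32 genes with roles beside the members had 507 peaks, of which 489 were tested. Of these, 6 were called higher (1.23%, against 1.87% of all tested peaks) and 4 lower (0.818%, against 1.44%). Both shares were below those of all tested peaks.

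Neurexin ligands had 1 of 172 peaks called higher (0.581%, against 1.87% of all tested peaks) and 3 lower (1.74%, against 1.44%). The higher one was in an intron of the neuroligin gene NLGN1 (30.4 ± 3.76 to 59.0 ± 5.57, adjusted p = 0.0231). The lower ones were intergenic peaks nearest to the cerebellin genes CBLN1 (119 ± 5.11 to 65.8 ± 14.3, adjusted p = 0.00445) and CBLN2 (60.1 ± 20.9 to 29.5 ± 11.4, adjusted p = 0.0475) and to LRRTM4 (159 ± 6.74 to 95.8 ± 18.6, adjusted p = 0.0053, edgeR for all 4). Contactin partners had 2 of 171 called higher (1.17%, against 1.87%) and 1 lower (0.585%, against 1.44%). The largest rise of the list was in an intron of NFASC, which encodes neurofascin, whose glial form binds the CNTN1 complex (46.8 ± 11.02 to 119 ± 11.1, log2 fold change 1.38, edgeR adjusted p = 9.06e-05). PTPRG, a receptor phosphatase that binds contactins, rose in an intron (113 ± 10.2 to 172 ± 12.7, adjusted p = 0.00967), and the adhesion gene CHL1 fell at a coding exon near its start (124 ± 4.41 to 77.7 ± 11.5, adjusted p = 0.0136, edgeR for both). None of the 42 tested peaks of the cytoplasmic scaffold genes CASK, APBA1, EPB41L3 and SDCBP was called, with or without the fold limit. Over all tested peaks the shares without the fold limit were 3.44% higher and 3.03% lower.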

How the data were processed

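ATAC-seq counts of 3 empty vector and 3 HMGB2OE libraries of A375 cells were analysed. The authors trimmed reads (Trim Galore 0.6.7, cutadapt 4.0), aligned them to hg38, removed duplicates, called and merged peaks and deposited raw counts per peak from featureCounts; Tn5 shift and multi-mapping reads are not given in the sources used here. Peaks were assigned with GENCODE release 44. Counts were fitted with edgeR 4.0.16 (filterByExpr, TMM, quasi-likelihood F test, R 4.3.3), with standard errors from the F statistic. DESeq2 1.42.0, other scalings and filters, GC-content offsets, the replicate number as a block and leaving out each library were alternatives. In counts simulated for the HMGB2OE comparison with a log2 fold change of 1.5 in 200 of 149850 peaks, edgeR recovered 90% with 15 false calls. That change is larger in size than the largest called member change (-1.22 at CNTN6). The changed peaks were drawn from all tested peaks (median normalized count 105, beside 67.3 for members). The simulation therefore does not give the recovery for member peaks or for changes of the size called here.

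Members and lists were chosen with earlier results of these data known. Peaks named are each member's strongest promoter peak and strongest peak outside promoters and all called peaks, and partner genes those with a called peak. Some items that these rules give are not reported here. For sequences 300 central bases were printed in place of a shorter window, a choice made after the words' positions were seen, and the strongest promoter peak was not printed because it overlaps an untranslated exon. The CNTN1 start peak, the strong CNTN6 and the CNTNAP5 peaks under the fold limit were named after their values were seen. Errors and tests cover the spread between libraries only.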

Additional observations from a re-analysis of the deposited data

How the results depend on the processing

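Library number and low counts limit these results, since 120 member peaks had a mean normalized count under 50. Of the 15 called member peaks, 7 kept their call in all 6 fits that left out a library. The fewest, 8, were kept without HMGB2OE replicate 2. Leaving out 1 library gave 2 to 6 member peaks higher (2 without HMGB2OE replicate 1 or 2), 8 to 13 lower, 3 to 10 partner peaks higher (3 without HMGB2OE replicate 1, 10 without empty vector replicate 1), 2 to 6 lower (2 without HMGB2OE replicate 3) and 0 to 1 member gene sums. With a smaller fold limit or none, 10 and 19 member and 13 and 7 partner peaks were called higher and lower. Peaks in gene bodies alone left 1 lower partner peak and gave 2 gene sums, and leaving out promoters gave 0. The replicate block gave 5 member peaks higher and 12 lower, and 9 and 6 partner peaks, and with GC-content offsets 7 member peaks higher. Same-numbered libraries of the groups had correlated deviations of -0.0886, 0.185 and 0.125 in replicates 1 to 3. Libraries of unlike number ranged from -0.266 (empty vector 2 with HMGB2OE 3) to 0.152 (empty vector 1 with HMGB2OE 3). The numbers were therefore not taken to pair the samples. Scaling, filter and DESeq2 alternatives kept at least 14 of the 15 calls. The log2 fold changes that changed sign were all of peaks and sums not called as first analysed. Without promoters the sums were -0.0029 at CNTN3, -0.0081 at CNTN6 and -0.031 at CNTNAP5, and body peaks alone gave -0.32 at CNTNAP4. Loess scaling gave -0.0010 at CNTN5 and -0.0047 at CNTNAP5, and library size alone -0.0052 at CNTNAP5. Sums without 1 library ranged from -0.0066 to 0.040 at CNTN6, from -0.031 to 0.055 at CNTNAP5 and from -0.062 to 0.00066 at NRXN3. Peak values under loess scaling were 0.030 (NRXN3 79279034) and 0.026 (CNTN3 74531508), and window centring gave -0.068 (CNTN3 74614462). Without 1 library they ranged from -0.089 to 0.0078 (NRXN3 79279034), -0.34 to 0.022 (CNTNAP5 124025100), -0.12 to 0.056 (CNTN3 74531508) and -0.0025 to 0.023 (CNTN3 74614462). The cause of these changes was not tested.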

Other observations

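The tested peak nearest to each called member peak had the same sign of log2 fold change in 9 of 15 cases and was itself called in 0, with 8 of the 15 within 10 kb. No test of this was made. The same counts for all called peaks of the atlas are not given here. Few peaks were called at all (1.87% of all tested peaks higher and 1.44% lower), so these counts do not set the members apart. At NRXN3 the peak at chr14:79419429-79419930 (log2 fold change -0.87) begins 51 bases from the end of its neighbour, which had a log2 fold change of -0.12. Beyond the called peaks, CNTN4 had a pair of intergenic peaks 156 and 149.7 kb upstream of its start that were lower below the fold limit (log2 fold change -0.52 for both, adjusted p = 0.0127 and 0.0133).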
